A study of Rattus norvegicus with 52 samples.

Results

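The genes described here are the heat shock proteins and the DnaJ co-chaperones of the rat mammary gland, chosen by symbol alone. Every row of the count tables whose symbol begins with Hsp and a digit or lower-case letter, with Dnaj, or with Hsf and a digit was taken, which gave 76 of 17356 genes. By name they fall into 11 Hsp70, 3 Hsp110, 3 Hsp90, 2 mitochondrial chaperonin, 8 small Hsp, 4 DnaJA, 13 DnaJB and 26 DnaJC genes, 3 heat shock factors, and 3 genes named for binding one of these. Of the 76, 70 passed the filter on low counts at 9 weeks, and Dnajb7, Dnajb8, Dnajc5b, Dnajc5g, Hspb3 and Hspb9 did not.

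RNA-seq had been done on sorted mammary epithelial cells of female rats. Cdkn1b-/- rats, which lack the cell cycle inhibitor p27, were compared with Cdkn1b+/+ rats, all of the ACI strain. Per the study's methods, the knockout alleles are small deletions in the second exon, made in Sprague-Dawley rats and backcrossed to ACI, and the labels do not say which allele or backcross generation a rat carried. At 9 weeks, virgin adults gave 2 libraries per genotype of basal (Cd24+ Cd29HIGH) cells, of mature luminal cells and of luminal progenitors (LP) sorted as PNA+ (binding the lectin peanut agglutinin) or as Cd49b+ (carrying an integrin). At 4 weeks, basal and luminal cells were profiled in 3 libraries each for +/+, and in 2 basal and 3 luminal libraries for -/-. At 6 weeks there were 3 basal and 2 luminal +/+ libraries and 2 of each for -/-. Within these groups the titles carry differing numbers, which the labels do not explain. The study describes its younger groups by ranges of age in weeks that span these numbers, without saying what the numbers are. The titles of 6 weeks hold 5.9 for all +/+ rats and 1 -/- rat and 5.3 for the -/- rat numbered 1, and those of 4 weeks hold 3.4 for 1 +/+ rat and 4 for all others. In a further experiment, basal and luminal cells came from intact ACI and BN rats given an empty implant (control) or one releasing 17β-estradiol (E2), with 2 ACI libraries and 1 BN library per cell type and treatment. Each BN label carries 2 animal numbers. The luminal titles of this experiment name Cd49b and PNA, and the labels do not say which cells were kept by them. The labels give no age for these rats. Per the study's methods, implants were placed in ACI and BN rats at 9 weeks of age and released hormone over 3 weeks. ACI rats are susceptible and BN rats resistant to mammary tumors induced by E2.

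Chaperones of the Hsp70 class bind and release exposed hydrophobic stretches of unfolded proteins in a cycle of ATP hydrolysis and nucleotide exchange. DnaJ proteins hand substrates to Hsp70 and stimulate its ATPase through their J domain, Hsp110 proteins exchange its nucleotide, and Hsp90 takes over late-folding clients such as kinases and steroid receptors, which in the mammary gland include the estrogen and progesterone receptors. Small Hsps hold unfolding proteins without using ATP. The heat shock factor Hsf1 binds inverted repeats of nGAAn, the heat shock element, and switches many of these genes on under proteotoxic stress, while the chaperones of the endoplasmic reticulum (ER) are switched on through ER stress elements. Tissue dissociation and cell sorting can themselves induce heat shock genes, together with immediate early genes such as Fos and Jun.

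The promoters of the genes the results turn on are shown because they carry different elements. Of the 76 genes, 59 had a promoter in the RefSeq table of the GRCr8 build, read as 250 bases before to 50 bases after the gene start. A heat shock element of 3 units (GAA, TTC and GAA, or TTC, GAA and TTC, with 2 free bases between units, on either strand) occurred in the windows of 5 members, Hsph1, Hspa8, Hspd1, Hspe1 and Dnaja1. That is 8.47% of the 59, against 0.798% of all 33469 promoters. An element of 2 units (GAANNTTC or TTCNNGAA), which every 3-unit element contains, occurred in 16 members (27.1%) and in 15.9% of all promoters. The ER stress element (CCAAT, 9 free bases and CCACG) occurred in Hspa5, Hsp90b1 and Dnajc3 (5.08%, against 0.0657% of all). These are matches of letters only. In the lines that follow, all written 5′ to 3′ in the direction of the gene, capitals mark the heat shock and ER stress elements.
Hsph1 (chr12:10427118-10427417, + strand): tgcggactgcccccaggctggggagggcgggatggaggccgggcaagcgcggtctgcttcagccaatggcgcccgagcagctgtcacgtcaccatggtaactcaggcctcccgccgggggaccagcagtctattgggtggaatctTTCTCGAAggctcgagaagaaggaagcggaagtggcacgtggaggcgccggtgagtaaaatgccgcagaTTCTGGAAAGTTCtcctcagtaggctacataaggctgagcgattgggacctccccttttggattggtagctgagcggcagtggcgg
Hspa8 (chr8:50080264-50080563, + strand): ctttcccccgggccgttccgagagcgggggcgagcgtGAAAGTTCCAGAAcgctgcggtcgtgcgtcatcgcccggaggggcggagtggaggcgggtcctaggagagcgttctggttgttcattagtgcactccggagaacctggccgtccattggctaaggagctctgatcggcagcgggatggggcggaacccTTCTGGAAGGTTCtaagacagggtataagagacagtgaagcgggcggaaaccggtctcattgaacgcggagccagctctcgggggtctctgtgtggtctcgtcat
Hspe1 (chr9:64084077-64084376, + strand): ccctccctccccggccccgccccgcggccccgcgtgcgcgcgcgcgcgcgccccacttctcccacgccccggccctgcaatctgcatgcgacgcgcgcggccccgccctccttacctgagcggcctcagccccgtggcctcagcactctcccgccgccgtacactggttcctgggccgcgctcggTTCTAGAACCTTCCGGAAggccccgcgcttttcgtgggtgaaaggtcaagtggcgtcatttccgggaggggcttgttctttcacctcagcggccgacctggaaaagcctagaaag
Dnaja4 (chr8:63981337-63981636, + strand): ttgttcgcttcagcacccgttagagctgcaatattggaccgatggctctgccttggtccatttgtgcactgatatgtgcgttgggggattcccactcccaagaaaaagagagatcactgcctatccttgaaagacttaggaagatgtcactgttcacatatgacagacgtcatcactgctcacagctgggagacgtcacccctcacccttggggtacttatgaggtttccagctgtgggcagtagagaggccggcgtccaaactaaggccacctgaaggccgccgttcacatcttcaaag
Hsp90ab1 (chr9:22930173-22930472, + strand): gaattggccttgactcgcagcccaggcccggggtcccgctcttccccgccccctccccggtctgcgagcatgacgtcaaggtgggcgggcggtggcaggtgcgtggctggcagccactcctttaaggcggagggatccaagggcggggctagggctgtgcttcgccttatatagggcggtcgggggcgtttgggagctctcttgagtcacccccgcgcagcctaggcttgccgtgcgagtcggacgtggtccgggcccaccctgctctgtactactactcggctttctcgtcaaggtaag
Hspa5 (chr3:38452766-38453065, + strand): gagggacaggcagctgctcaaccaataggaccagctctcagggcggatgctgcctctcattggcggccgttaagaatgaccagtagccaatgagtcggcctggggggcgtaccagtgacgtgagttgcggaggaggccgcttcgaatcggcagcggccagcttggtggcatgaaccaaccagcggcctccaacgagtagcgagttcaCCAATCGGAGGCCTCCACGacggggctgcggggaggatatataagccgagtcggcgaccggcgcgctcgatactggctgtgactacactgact
Hsph1 and Hspa8 have a 3-unit element beginning 36 and 55 bases upstream of the start, and Hspa8 has another beginning 213 bases upstream. Hspe1 and Hspd1 are read in opposite directions from windows that overlap, so the run of capitals of Hspe1, beginning 65 bases upstream, is also the element found in the window of Hspd1. The windows of Dnaja4 and Hsp90ab1 hold none of these letters. Hspa5 has its ER stress element 43 bases upstream.

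The 9-week libraries held 21545300 to 33859600 reads counted on genes, with 14674000 to 23045300 at 4 weeks, 7985620 to 16390500 at 6 weeks and 13659400 to 25280400 in the E2 experiment (each to 6 digits), and the members held 1.12 to 4.53% of them. Levels are CPM, counts scaled to a common library size with TMM factors over all 48 libraries. Transcript lengths were not used, so levels are compared between libraries and never between genes. Cdkn1b itself lay at 1.95 to 4.73 CPM in -/- and 7.14 to 17.2 CPM in +/+ libraries at 9 weeks, while the genotypes overlapped at 4 weeks (4.54 to 17.7 against 12.7 to 38.9) and at 6 weeks (9.28 to 33.9 against 3.12 to 35.9). Reads over the whole gene do not read a small deletion. Basal and luminal markers (10 and 12 genes) separated the sorted populations at each age and in the E2 experiment, with 9 of the 9 basal markers tested higher and 11 of 12 luminal markers lower in basal than in mature luminal cells at 9 weeks. Some libraries stood apart. The second -/- Cd49b+ library had 3950.1 CPM of basal and 1149 CPM of endothelial markers, against 465 to 1355 and 148 to 972 CPM in the other 7 LP libraries. The second -/- luminal library of 6 weeks had 3492 CPM of fibroblast and 1659 CPM of endothelial markers, where the other luminal libraries of that age had at most 96.4 and 184. The first ACI luminal library with E2 had 5046 CPM of fibroblast markers, against at most 1138 in the other luminal libraries of that experiment, and the BN basal library with E2 had 16373, against at most 2839 in the other basal ones. The first ACI basal library with E2 had 2970 CPM of basal markers, against 8863 to 19155 in the other basal libraries of that experiment.

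Hsp90aa1, the stress-inducible cytosolic Hsp90, was counted at 0 to 1.35 CPM in all 48 libraries. Of the reads of a library, 47.1 to 77.0% were assigned to no gene, mostly, over all libraries, because they aligned to more than 1 place, and the part of this in the count of Hsp90aa1 was not tested. Its own values are not described as a result, though it stays in the counts and medians of the members and of the Hsp90 class. It also stands in the closing list of sign changes. Hspa1a and Hspa1b are near-identical copies of the inducible Hsp70, so the counts of both are uncertain, also where only Hspa1a is given.

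In LP of 9-week-old rats, several of the cytosolic folding chaperones were lower in Cdkn1b-/- than in +/+ cells. By edgeR's quasi-likelihood test over 12809 genes, 5 of the 70 members tested passed an adjusted p of 0.05 (7.14%), 4 lower and 1 higher in -/-, where 3.4% of all genes passed. The 4 lower genes were Hsph1, Dnaja4, Hsp90ab1 and Hspa8.

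Hsph1 encodes Hsp110, which exchanges the nucleotide of Hsp70. Its levels were 1526 and 1987 CPM in the PNA+ and 1688 and 1977 CPM in the Cd49b+ libraries of +/+ rats, and 345 and 987 CPM (PNA+) and 557 and 812 CPM (Cd49b+) in -/- rats (log2 fold change -1.37, SE 0.26, edgeR adjusted p = 0.012). All 4 -/- libraries lay below all 4 +/+ libraries. Dnaja4, a type A J-domain partner of Hsp70, had 112, 205, 129 and 204 CPM in +/+ and 53.0, 70.9, 61.7 and 61.2 CPM in -/- LP libraries, PNA+ before Cd49b+ (log2 fold change -1.35, SE 0.25, edgeR adjusted p = 0.012). Again the genotypes did not overlap. Hsp90ab1, the constitutive cytosolic Hsp90, had 3610.4, 3593, 3659.9 and 3181 CPM in +/+ and 2141, 2126, 2113 and 1894 CPM in -/- libraries (log2 fold change -0.71, SE 0.16, edgeR adjusted p = 0.026). Hspa8, the constitutive cytosolic Hsp70 (Hsc70), had 2124, 2112, 2269.6 and 2009 CPM in +/+ and 1134, 1382, 1373 and 1321 CPM in -/- libraries (log2 fold change -0.66, SE 0.16, edgeR adjusted p = 0.037). For both genes the libraries of a genotype lay close together and well apart from those of the other. Hsf2bp, named for binding Hsf2, was the gene that rose, from 0.997, 1.21, 1.16 and 0.674 to 2.59, 3.29, 2.13 and 2.33 CPM (log2 fold change 1.40, SE 0.33, edgeR adjusted p = 0.033), at levels of few counts.

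Libraries of a genotype that carry the same number deviated together at 9 weeks, and so the 4 LP libraries per genotype stand for fewer than 4 independent samples. When PNA+ and Cd49b+ libraries of the same genotype and number were summed, leaving 2 against 2, none of the 70 members and 5 of all genes passed, while the fold changes stayed close to those above (Hsph1 -1.38, edgeR adjusted p = 0.36, and Dnaja4 -1.37, edgeR adjusted p = 0.45). Taken apart, the log2 fold change of Hsph1 was -1.36 in PNA+ and -1.39 in Cd49b+ cells, and that of Hspa8 was -0.70 and -0.62, with no member called in either. Hsph1 and Dnaja4 were called in all 8 fits that left out 1 LP library, Hsp90ab1 in 2 and Hspa8 in 1. In these fits 2 members were called in 6 cases (1.23 to 1.87% of all genes), 3 without the first -/- PNA+ library (1.66%), and 10 without the second -/- Cd49b+ library (9.45%), which stood apart in its basal and endothelial markers.

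**Figure D1:**
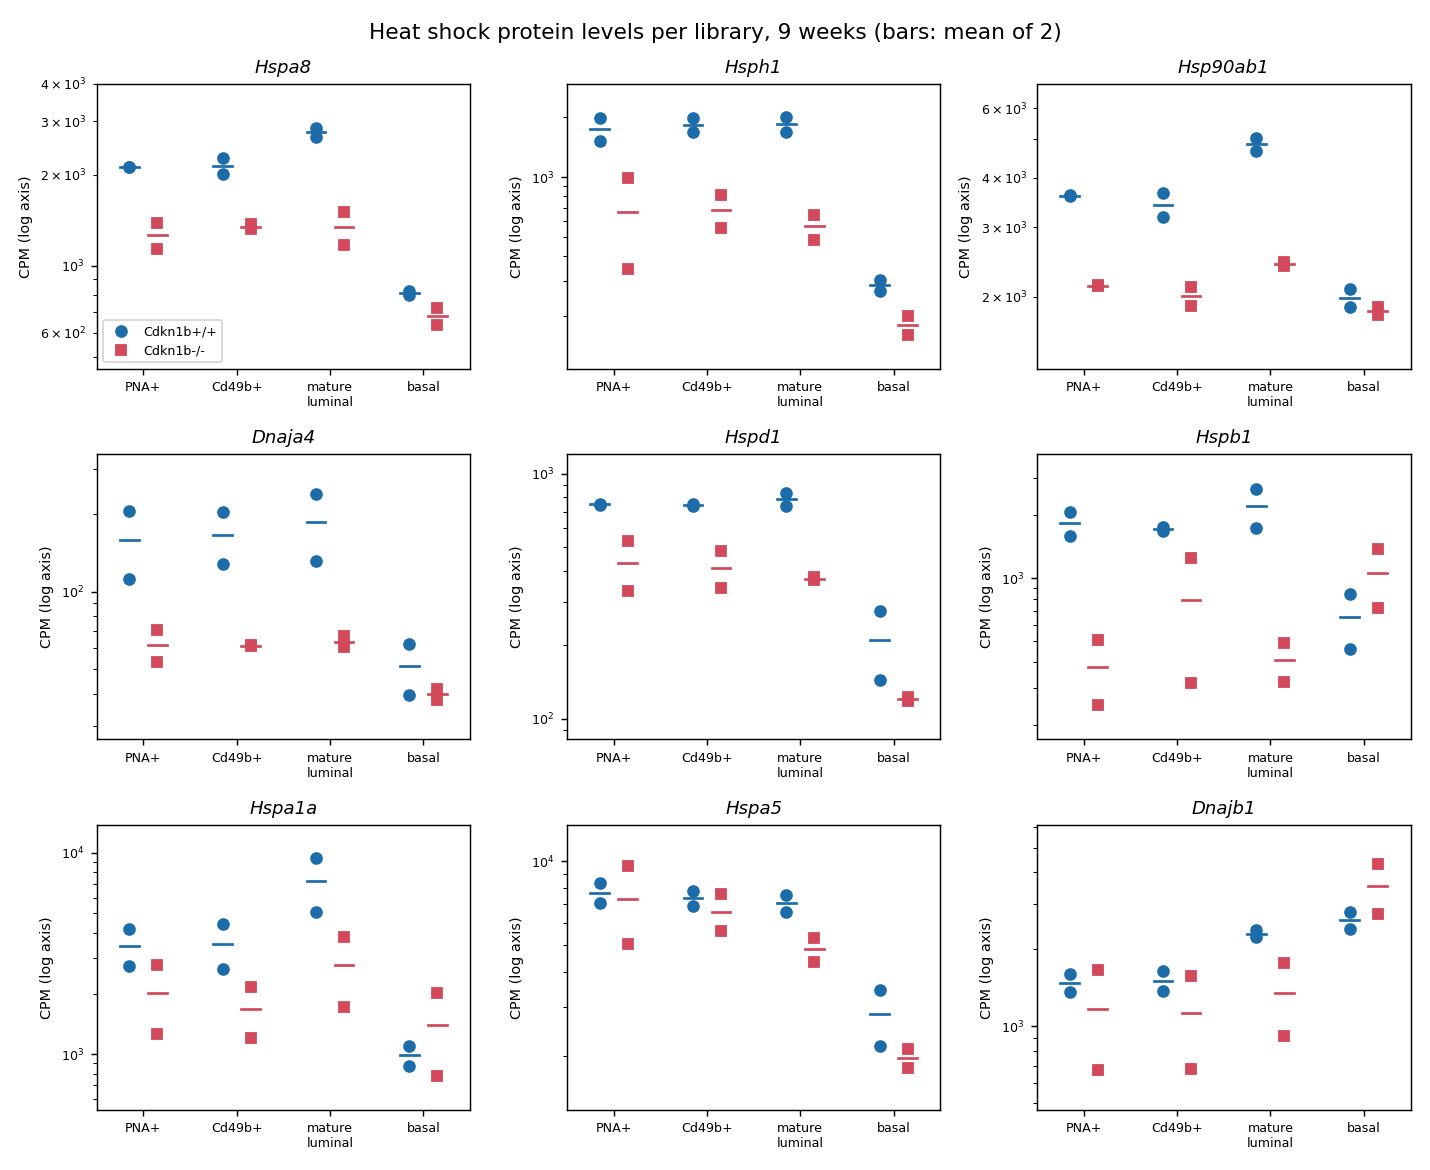
Levels of 9 members in each 9-week library, in CPM on a log axis, by sorted population. Circles are Cdkn1b+/+ libraries, squares are -/- libraries, and bars are means of 2. Hspa8, Hsph1, Hsp90ab1, Dnaja4 and Hspd1 are lower in every -/- than in every +/+ library of PNA+, Cd49b+ and mature luminal cells, and Hspb1 likewise, with the second Cd49b+ library of -/- rats at 1255 CPM.

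The other classes differed in how they moved in LP. The mitochondrial chaperonin, made of Hspd1 (Hsp60) and Hspe1 (Hsp10), had log2 fold changes of -0.77 (SE 0.20) and -0.63 (SE 0.25) that did not pass (edgeR adjusted p = 0.057 and 0.2). With the number of a library as a block, Hspd1 passed (edgeR adjusted p = 0.042). Hspd1 lay at 736 to 752 CPM in +/+ and 333 to 533 CPM in -/- libraries. Among the small Hsps, all 6 tested had a negative log2 fold change and none passed. For Hspb1 (Hsp27) the +/+ libraries had 1592, 2081, 1682 and 1749 CPM and the -/- libraries 249, 505, 316 and 1255 CPM (log2 fold change -1.59, SE 0.43, edgeR adjusted p = 0.062). The last of these values is the second Cd49b+ library, and without it the log2 fold change was -2.25 (edgeR adjusted p = 0.0025). With the block it was -1.76 (edgeR adjusted p = 0.0073). The inducible Hsp70 genes overlapped between genotypes, Hspa1a with 2660.1 to 4426 CPM in +/+ and 1199 to 2761 CPM in -/- libraries (log2 fold change -0.89, SE 0.37, edgeR adjusted p = 0.22), and Hspa1b with a log2 fold change of -0.59 (SE 0.38). The ER chaperones lay near 0, with log2 fold changes of -0.08 (SE 0.22) for Hspa5 (BiP), 0.13 (SE 0.26) for Hsp90b1 (Grp94), 0.22 (SE 0.16) for Dnajb9 and 0.14 (SE 0.21) for Dnajc3, both J-domain partners of BiP. So did Dnaja1 with -0.04 (SE 0.26) and Dnajb1, the main partner of inducible Hsp70, with -0.35 (SE 0.30). The factors Hsf1 and Hsf2 had -0.27 (SE 0.16) and 0.38 (SE 0.26). By class, the median log2 fold change was -0.55 over 11 Hsp70, -1.30 over 3 Hsp110, -0.35 over 6 small Hsp, 0.12 over 11 DnaJB and 0.05 over 24 DnaJC genes, against 0.03 over all genes tested. With library totals in place of TMM the median over all genes became -0.27 and that over the members -0.38, and 6 members were called, all lower, Hsf2bp not among them.

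In mature luminal cells the same 4 chaperones had lower levels in both -/- than in both +/+ libraries, but no member passed with 2 libraries against 2. With the number of a library as a block, 2 did, Hsph1 (edgeR adjusted p = 0.033) and Hspb1 (edgeR adjusted p = 0.049), and 0.328% of all genes, though libraries of the same number did not deviate together across genotypes. The log2 fold change was -1.62 (SE 0.37) for Hsph1, -1.45 (SE 0.35) for Dnaja4, -0.94 (SE 0.22) for Hspa8 and -0.91 (SE 0.22) for Hsp90ab1, with edgeR adjusted p from 0.18 to 0.21. Hspa8 lay at 2667 and 2855 CPM in +/+ and 1508 and 1172 CPM in -/- libraries, Hsp90ab1 at 4662 and 5053 and 2454 and 2393 CPM, and Hspb1 at 1732 and 2675 and 321 and 489 CPM (log2 fold change -2.36, SE 0.62, edgeR adjusted p = 0.26). For each of these 3 genes both -/- libraries lay below both +/+ libraries. In all, edgeR called 0 of 70 members and 0.133% of all genes, 12 members (and 7.15% of all genes) had an unadjusted p under 0.05, and DESeq2 called 6 members, all lower (1.23% of all genes). Of the members, 45 had a negative log2 fold change and the median was -0.15, against 0.03 over all genes. In basal cells edgeR called 0 of 70 members and 0.0546% of all genes, 7 members (9.09% of all genes) had an unadjusted p under 0.05 and DESeq2 called 1, higher in -/- (1.33% of all genes). Hspa8 lay at 822 and 798 CPM in +/+ and 638 and 722 CPM in -/- basal libraries, with a log2 fold change of -0.22 (SE 0.22). Hspb1, Hspa1a and Hspa1b had positive values there, 0.71 (SE 0.60), 0.52 (SE 0.52) and 0.63 (SE 0.53), none of which passed. Without the second -/- basal library these became 0.20, -0.29 and -0.18.

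**Figure D2:**
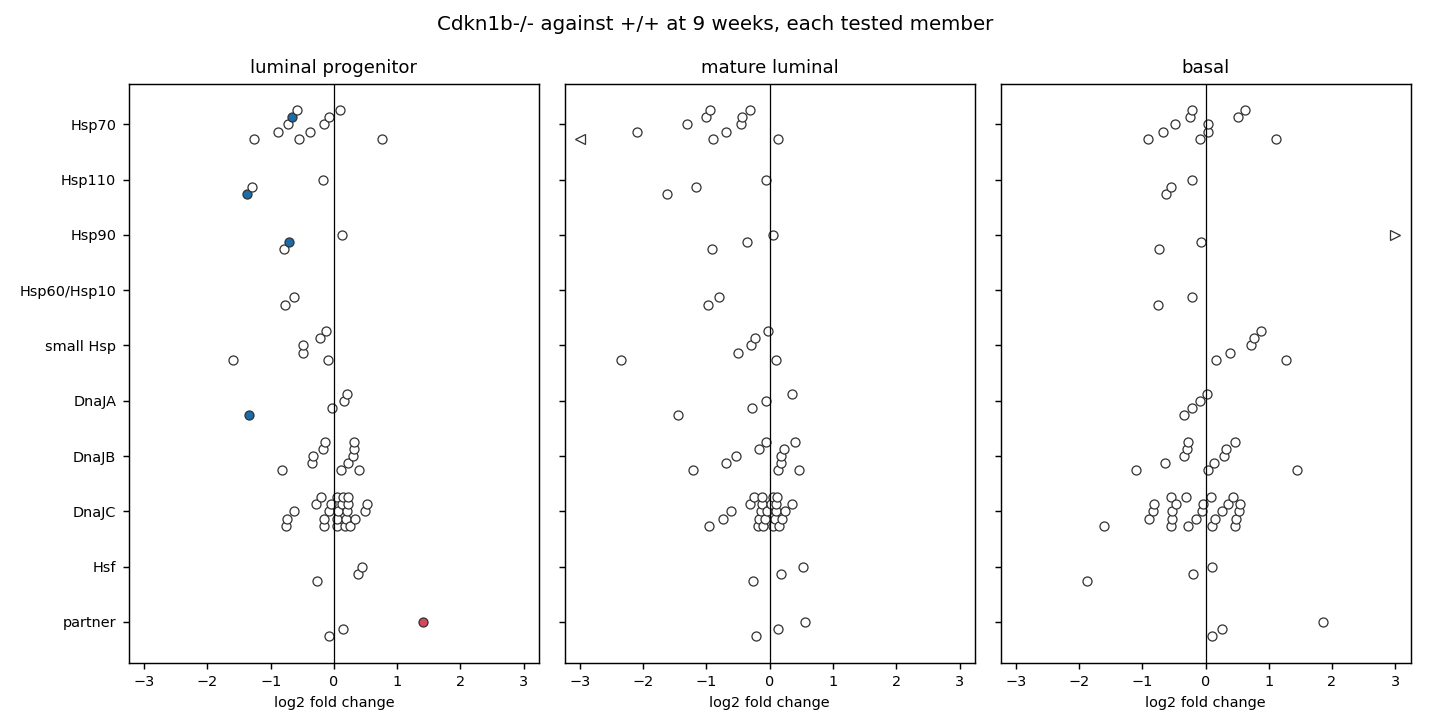
Log2 fold change of Cdkn1b-/- over +/+ at 9 weeks for each tested member (points), by class, in 3 sorted populations. Filled points passed an edgeR adjusted p of 0.05 (blue lower, red higher in -/-), and triangles lie beyond the axis. The 5 filled points are all in LP, where all 3 Hsp110 and 9 of 11 Hsp70 genes lie left of 0.

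Members whose libraries did not overlap between genotypes were also counted. In LP, 11 of 70 members (15.7%) were lower in all 4 -/- than in all 4 +/+ libraries, among them Hspd1, Hspe1, Hspb1 and Hspa9 beside the 4 called, against 6.69% of all genes, and 3 (Dnajb6, Dnajc7 and Hsf2bp) were higher, against 6.6% of all genes. In mature luminal cells, 24 members (34.3%) were lower in both -/- libraries, against 17.7% of all genes, and 2 were higher, against 11.6%. Basal members went both ways, with 14 lower (20.0%, against 18.5% of all genes) and 12 higher, against 18.7%. Whether the effect of genotype differed between populations was tested as an interaction in the same fit. No member and no gene was called for LP against basal, mature luminal against basal or LP against mature luminal (0 percent of all genes in each), although 10, 9 and 1 members (7.23%, 4.39% and 1.75% of all genes) had an unadjusted p under 0.05 and DESeq2 called 1, 1 and 0 (0.578%, 0.039% and 0 percent of all genes). Without the second -/- Cd49b+ library, 2 members and 0.962% of all genes passed for LP against basal. For Hspb1 the genotype effect in LP minus that in basal cells was -2.30 (SE 0.74) on the log2 scale (edgeR adjusted p = 0.59) and that in mature luminal minus basal cells -3.07 (SE 0.86) (edgeR adjusted p = 1).

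Immediate early genes, which respond to cell handling, were lower in sum in -/- luminal cells too. The summed level of 15 of them was 40963 to 46237 CPM in +/+ and 29557 to 40953 CPM in -/- LP libraries, 55114 to 59671 and 36583 to 42217 CPM in mature luminal libraries, and 23952 to 28082 and 22125 to 32213 CPM in basal libraries. The mature luminal sums lay apart between genotypes and the basal sums overlapped. In LP the highest -/- library (40953 CPM) nearly reached the lowest +/+ one (40963 CPM). In LP, 2 of the 15 passed the test, Btg2 with -0.94 and Fosb with -0.81, and 11 of 15 had a negative log2 fold change. The 7 endothelial markers were all negative in LP without passing, summing to 472 to 972 CPM in +/+ and 148 to 1149 CPM in -/- libraries. The part of cell handling or of other cells in the chaperone values was not tested. In bulk libraries, fewer cells of a kind and less RNA per cell cannot be told apart.

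Basal and mature luminal cells of 9 weeks differed in many chaperones. Between them, 34 of 70 members passed (48.6%), 14 higher and 20 lower in basal cells, where 38.7% of all genes passed. The classes divided. The small Hsps were higher in basal cells (4 of 6 tested, none lower), as were Hsf1 and Hsf2, while the Hsp90, chaperonin and DnaJA genes that passed (2 of 3, 2 of 2 and 3 of 4) were all lower. Hsp70 and DnaJB genes went both ways, with 3 and 2 higher and 4 and 2 lower.

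Among the small Hsps, which in muscle guard contractile filaments, Hspb6 had 30.1, 34.0, 46.7 and 59.7 CPM in basal (+/+ before -/-) and 16.73, 12.02, 12.90 and 13.39 CPM in mature luminal libraries (log2 fold change 1.74, SE 0.22, edgeR adjusted p = 6.0e-05). Hspb8, which works with Bag3 in clearing damaged filaments, had 183, 395, 371 and 372 and 90.9, 152, 112 and 132 CPM (log2 fold change 1.59, SE 0.26, edgeR adjusted p = 3.7e-04). In both genes each basal library exceeded each mature luminal one. Hspa2, an Hsp70 best known from testis, had 42.4 to 59.4 CPM in basal and 11.8 to 28.9 CPM in mature luminal libraries (log2 fold change 1.78, SE 0.39, edgeR adjusted p = 0.0025). Dnajc27 and Dnajb5 were also higher in basal cells, by 1.65 and 1.57 on the log2 scale.

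On the luminal side, Dnajc6 (auxilin, which recruits Hsc70 to uncoat clathrin vesicles) had 0.687, 1.10, 0.564 and 0.412 CPM in basal and 11.8, 5.47, 7.95 and 6.67 CPM in mature luminal libraries (log2 fold change -3.42, SE 0.33, edgeR adjusted p = 7.7e-06). Dnajc22 lay at 1.63 to 4.74 and 17.8 to 25.9 CPM (log2 fold change -2.48, SE 0.28, edgeR adjusted p = 2.4e-05). The general chaperones were lower in basal cells too, Hsph1 with a log2 fold change of -2.02 (SE 0.26), Hspd1 with -1.62 (SE 0.21), Hspa8 with -1.23 (SE 0.16) and Dnaja1 with -1.69 (SE 0.27), and so were the ER chaperones Hspa5, Dnajb9 and Dnajc3 with -1.17 (SE 0.23), -1.08 (SE 0.16) and -0.94 (SE 0.21) (edgeR adjusted p at most 0.003 for these 7). Hspa1a and Hspa1b fell by 1.77 and 1.75 on the log2 scale. Dnajb1 went the other way, with 2413, 2787, 2738 and 4308 CPM in basal and 2376, 2229.6, 919 and 1777 CPM in mature luminal libraries (log2 fold change 0.94, SE 0.30, edgeR adjusted p = 0.025). Immediate early genes differed as well, 3 of 15 higher and 4 lower in basal cells, and 3 of 6 fibroblast markers were higher, and their part was not tested.

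At 4 weeks, in other animals, 22 of 69 members passed between basal and luminal cells (31.9%), 11 in each direction, where 35.1% of all genes passed. Of these, 10 of the 11 higher in basal cells were also called higher at 9 weeks, which is 90.9% of those of 4 weeks and 71.4% of those of 9 weeks (66.5% and 60.9% for all genes). They were Dnajb1, Dnajb5, Dnajc10, Dnajc27, Hspa12a, Hspa14, Hspa2, Hspb2, Hspb6 and Hspb7. Of the 11 lower ones, 9 were also called lower at 9 weeks, 81.8% and 47.4% (64.6% and 51.6% for all genes), and they were Dnaja3, Dnaja4, Dnajb3, Dnajc12, Dnajc22, Dnajc6, Hspa1a, Hspa1b and Hspa5. No member was called in opposite directions at the 2 ages, and of all 11801 genes tested at both only 51 were. Hspb6 had 47.0 to 109.9 CPM in the 5 basal and 7.51 to 18.6 CPM in the 6 luminal libraries (log2 fold change 2.44, SE 0.27, edgeR adjusted p = 1.3e-05). Hspa12a, a distant Hsp70 relative, had 2.07 to 25.8 CPM in basal libraries and at most 0.724 CPM in luminal ones, 3 of which held no count of it (log2 fold change 6.91, SE 0.97, edgeR adjusted p = 1.1e-04). Dnajb4, a J-domain protein of muscle and other tissues, had 214 to 302 CPM in basal and 38.4 to 99.4 CPM in luminal libraries (log2 fold change 2.35, SE 0.27, edgeR adjusted p = 2.1e-05), whereas at 9 weeks its basal and mature luminal libraries overlapped. Hspa4l, an Hsp110 relative, and Dnajc12 were lower in basal cells, with log2 fold changes of -1.61 and -1.63. Among the constitutive genes, Hspa8 lay at 809 to 1349 CPM in basal and 995 to 2272 CPM in luminal libraries, and Hspd1 at 191 to 249 and 166 to 219.8 CPM, and neither passed. The luminal sort of 4 weeks holds progenitors and mature cells together. All 6 fibroblast markers tested were higher in basal cells at 4 weeks, summing to 1077 to 6518 CPM in basal and 43.0 to 350.3 CPM in luminal libraries, and their part was not tested.

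At 6 weeks 4 of 68 members passed (5.88%), all higher in basal cells, where 5.65% of all genes passed. Dnajb1 had 897 to 2131 CPM in basal and 148 to 339 CPM in luminal libraries (log2 fold change 2.29, SE 0.38, edgeR adjusted p = 0.0085) and was called in all 9 fits without 1 library. Dnajb4 and Hspa2 had log2 fold changes of 1.76 (SE 0.33) and 2.41 (SE 0.56), Hspa14 had 47.2 to 121 CPM in basal and 11.98 to 53.55 CPM in luminal libraries, and Hspa2 and Hspa14 were called in only 2 and 3 of the 9. In these fits 2 members were called in 5 cases, 3 without the second -/- luminal library, 1 without the second -/- basal, 6 without the third +/+ basal and 13 without the first -/- luminal library, where 16.9% of all genes passed. The last fit keeps the library with fibroblast and endothelial markers as the only -/- luminal one. In the E2 experiment 0 of 71 members passed by edgeR and 2.04% of all genes did, 8 members (17.0% of all genes) had an unadjusted p under 0.05, and DESeq2 called 8 (16.5% of all genes). Without the first ACI luminal library with E2, 1 passed (3.19% of all genes). The nearest were Hspb8 (log2 fold change 1.19, SE 0.29, edgeR adjusted p = 0.071), Hspa2 (log2 fold change 1.94, SE 0.53, edgeR adjusted p = 0.094) and Hspb6 (log2 fold change 1.92, SE 0.56, edgeR adjusted p = 0.11). Of the members called in the same direction at 9 and 4 weeks, all 19 kept that sign at 6 weeks, and 9 of the 10 higher and 7 of the 9 lower ones kept it in the E2 experiment. The share of all genes that kept their sign was not computed, so these counts show nothing particular to the members. The luminal cells set against basal cells were the mature luminal sort at 9 weeks only.

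**Figure D3:**
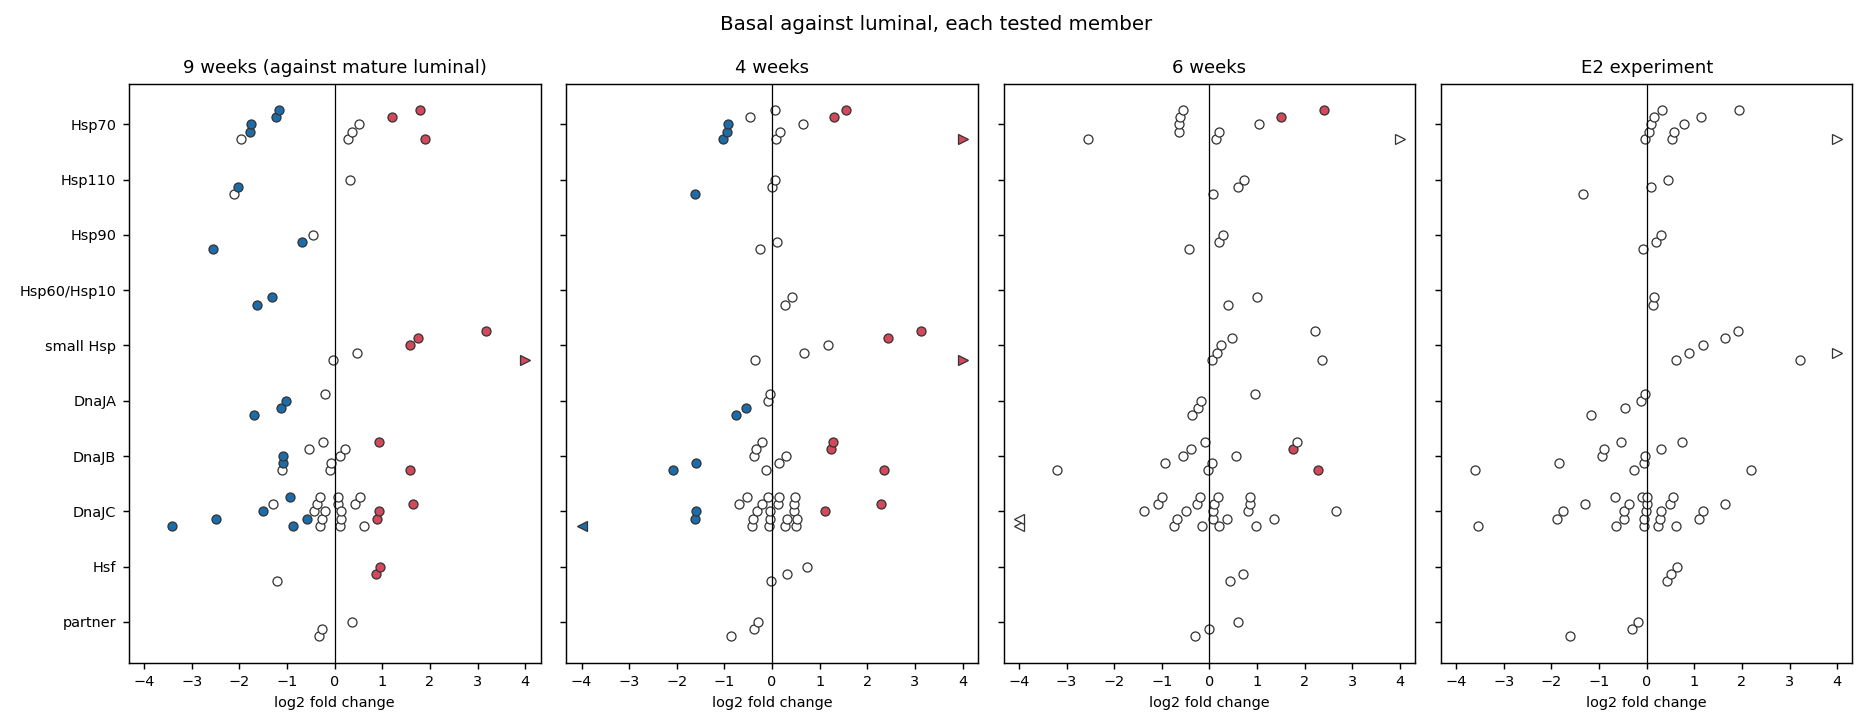
Log2 fold change of basal over luminal cells for each tested member (points), by class, at the 3 ages and in the E2 experiment. The luminal cells are the mature luminal sort at 9 weeks only, and those of the E2 experiment have titles that name Cd49b and PNA. Filled points passed an edgeR adjusted p of 0.05 (red higher, blue lower in basal cells), and triangles lie beyond the axis. The small Hsps lie mostly right of 0 in each panel, while the Hsp90 and chaperonin genes lie left of 0 at 9 weeks and around or right of it elsewhere.

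LP and mature luminal cells of 9 weeks differed in 13 of 70 members (18.6%), 8 higher and 5 lower in LP, where 23.4% of all genes passed. The higher ones included Hspa13, an Hsp70 of the microsomes (log2 fold change 0.72, SE 0.16, edgeR adjusted p = 0.0078), Dnajc10, an ER disulfide reductase (log2 fold change 0.89, SE 0.23, edgeR adjusted p = 0.015), Hspa9, the mitochondrial Hsp70, Hspa4, another Hsp110 relative, and Hsf2, the latter 3 with log2 fold changes of 0.65 (SE 0.20), 0.66 (SE 0.19) and 0.83 (SE 0.23). Hspa13 lay at 85.7 to 159 CPM in LP and 63.0 to 87.7 CPM in mature luminal libraries, so the lowest LP library overlapped. Hspe1 was lower in LP, with 144 to 344 CPM against 236 to 665 CPM (log2 fold change -0.97, SE 0.21, edgeR adjusted p = 0.0069), and its partner Hspd1 had 0.09 (SE 0.18) without passing. Dnajc19, Dnajc17, Hspbp1 and Dnajc4 were lower, with log2 fold changes of -0.77, -0.63, -0.59 and -0.50. With library totals in place of TMM, 13 members were again called, but 12 of them higher and 1 lower in LP. With the number of a library within its genotype as a block, 28 members passed (45.8% of all genes), and with PNA+ and Cd49b+ libraries summed, 2 did (11.7%). Leaving out 1 library gave 4 to 18. The low counts were 4 without the second -/- mature luminal library, 7 without the first +/+ one and 8 without the first -/- Cd49b+ one. All 7 endothelial markers were higher in LP, summing to 148 to 1149 CPM against 79.0 to 152 CPM, and their part in these values was not tested. Of the luminal markers, Prlr and Foxa1 were called higher in LP (log2 fold change 1.07 and 0.93, edgeR adjusted p = 0.0079 and 0.0195). Esr1 had 0.81 without passing. Krt8, Krt18, Krt19, Cldn3 and Elf5 were called lower, Elf5 with -0.76 (edgeR adjusted p = 0.016). The study counts Esr1 and Foxa1 among genes of luminal differentiation. LP and mature luminal here name the sorting gates, and the part of these markers was not tested.

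At the younger ages no member differed between genotypes by edgeR. At 4 weeks, 0 of 69 members and 0 percent of all 12082 genes passed in basal cells and in luminal cells, 0 and 1 members (2.57% and 3.6% of all genes) had an unadjusted p under 0.05, and DESeq2 called 0 in each. Hsph1 lay at 166, 146 and 119.8 CPM in +/+ and 74.0, 131 and 104 CPM in -/- luminal libraries, with a log2 fold change of -0.56 (SE 0.32). Hspa8 had -0.13 (SE 0.42), Hsp90ab1 -0.05 (SE 0.30) and Dnaja4 -0.15 (SE 0.27) in the same cells. For each of these genes the libraries of the genotypes overlapped. At 6 weeks, 0 of 68 members and 0 percent of all 11921 genes passed in basal cells and in luminal cells, while 10 and 12 members (8.99% and 16.4% of all genes) had an unadjusted p under 0.05. DESeq2 called 4 members (all lower in -/-) in basal and 7 (4 higher, 3 lower) in luminal cells, and 2.69% and 11.2% of all genes. Hsph1 had 222, 358 and 520.5 CPM in +/+ and 99.1 and 97.8 CPM in -/- basal libraries (log2 fold change -1.82, SE 0.48, edgeR adjusted p = 0.38), and 128 and 257 and 78.3 and 54.7 CPM in luminal ones (log2 fold change -1.65, SE 0.51, edgeR adjusted p = 0.19). In both cell types every -/- library lay below every +/+ library. Dnajc2, a J-domain protein of the ribosome, had 131, 133 and 168 and 37.9 and 26.6 CPM in +/+ and -/- basal libraries (log2 fold change -2.09, SE 0.45, edgeR adjusted p = 0.3). Over the members of basal cells, 46 of 68 log2 fold changes were negative with a median of -0.50, against 0.08 over all genes. Markers of other kinds separated the same basal libraries. Fibroblast markers summed to 67.9 to 497 CPM in +/+ and 1896 to 2791 CPM in -/-, Schwann cell markers to 311 to 383 and 1369.7 to 2298 CPM, basal markers to 6637 to 9133 and 12164 to 14702 CPM, and immediate early genes to 8808 to 11796 and 12482 to 16548 CPM. None of these markers passed on its own, and their part in the chaperone values was not tested. Hspa1a and Hspb1 in +/+ basal cells were set by 1 library, the third, with 1327 and 1381 CPM, where the other 2 had 236 and 422, and 251 and 276 CPM. This library had the fewest counts of all 48 and the highest share of unassigned reads. Without the first -/- luminal library, 11 members and 17.9% of all genes passed between genotypes in luminal cells, the remaining -/- library being the one with fibroblast and endothelial markers.

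The change of the genotype effect from 4 to 6 weeks was tested as an interaction, and no member passed (0.0398% of all genes in basal and 1.21% in luminal cells), while 10 and 8 (8.94% and 15.5% of all genes) had an unadjusted p under 0.05 and DESeq2 called 2 and 6 (1.54% and 7.67% of all genes). In luminal cells, 8 passed without the first -/- luminal library of 6 weeks (21.0% of all genes) and 3 without the second +/+ one (2.26%). In +/+ basal cells, 9 of 70 members differed between 6 and 4 weeks (12.9%), 8 higher and 1 lower at 6 weeks, where 10.5% of all genes passed. Dnajc2 rose from 40.9, 27.7 and 33.5 to 131, 133 and 168 CPM (log2 fold change 2.14, SE 0.33, edgeR adjusted p = 0.0011) and Dnaja2, a type A co-chaperone of Hsc70, from 195, 146 and 209 to 545, 496 and 644 CPM (log2 fold change 1.68, SE 0.28, edgeR adjusted p = 0.0018). Neither gene overlapped between ages. Hspe1, Hspd1, Hspa4, Hsph1, Dnajc25 and Hsf1 were higher at 6 weeks by 2.16, 1.22, 1.23, 1.39, 1.91 and 1.44 on the log2 scale, and Hspa14, a ribosome-associated Hsp70, was lower (log2 fold change -1.42, SE 0.37, edgeR adjusted p = 0.023). Leaving out 1 library gave 3 to 9 members, 3 and 4 without the first and the second +/+ basal library of 4 weeks, and taking both genotypes gave 3. In +/+ luminal cells 3 of 70 were called (4.29%), Hspa2, Hspa14 and Dnajb11 with -2.74, -1.87 and -1.55 on the log2 scale, where 3.1% of all genes passed. Hspa2 had 203, 139.8 and 116 CPM at 4 weeks and 7.13 and 38.1 CPM at 6 weeks. Leaving out 1 library of these 5 gave 0 to 3 members, 0 without the first or the second of 4 weeks or the first of 6 weeks and 1 without the third of 4 weeks. In basal cells, 11 of 15 immediate early genes were lower at 6 weeks, and the summed level was 27614 to 33643 CPM at 4 and 8808 to 11796 CPM at 6 weeks. Fibroblast markers of the +/+ basal libraries summed to 1077 to 5694 CPM at 4 and 67.9 to 497 CPM at 6 weeks (1 of 6 passed, lower), and basal markers to 14529 to 17030.5 and 6637 to 9133 CPM (3 of 9 passed, lower). The part of these in the chaperone values was not tested, and whether the ages were sorted and sequenced together is not given in the sources used here.

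**Figure D4:**
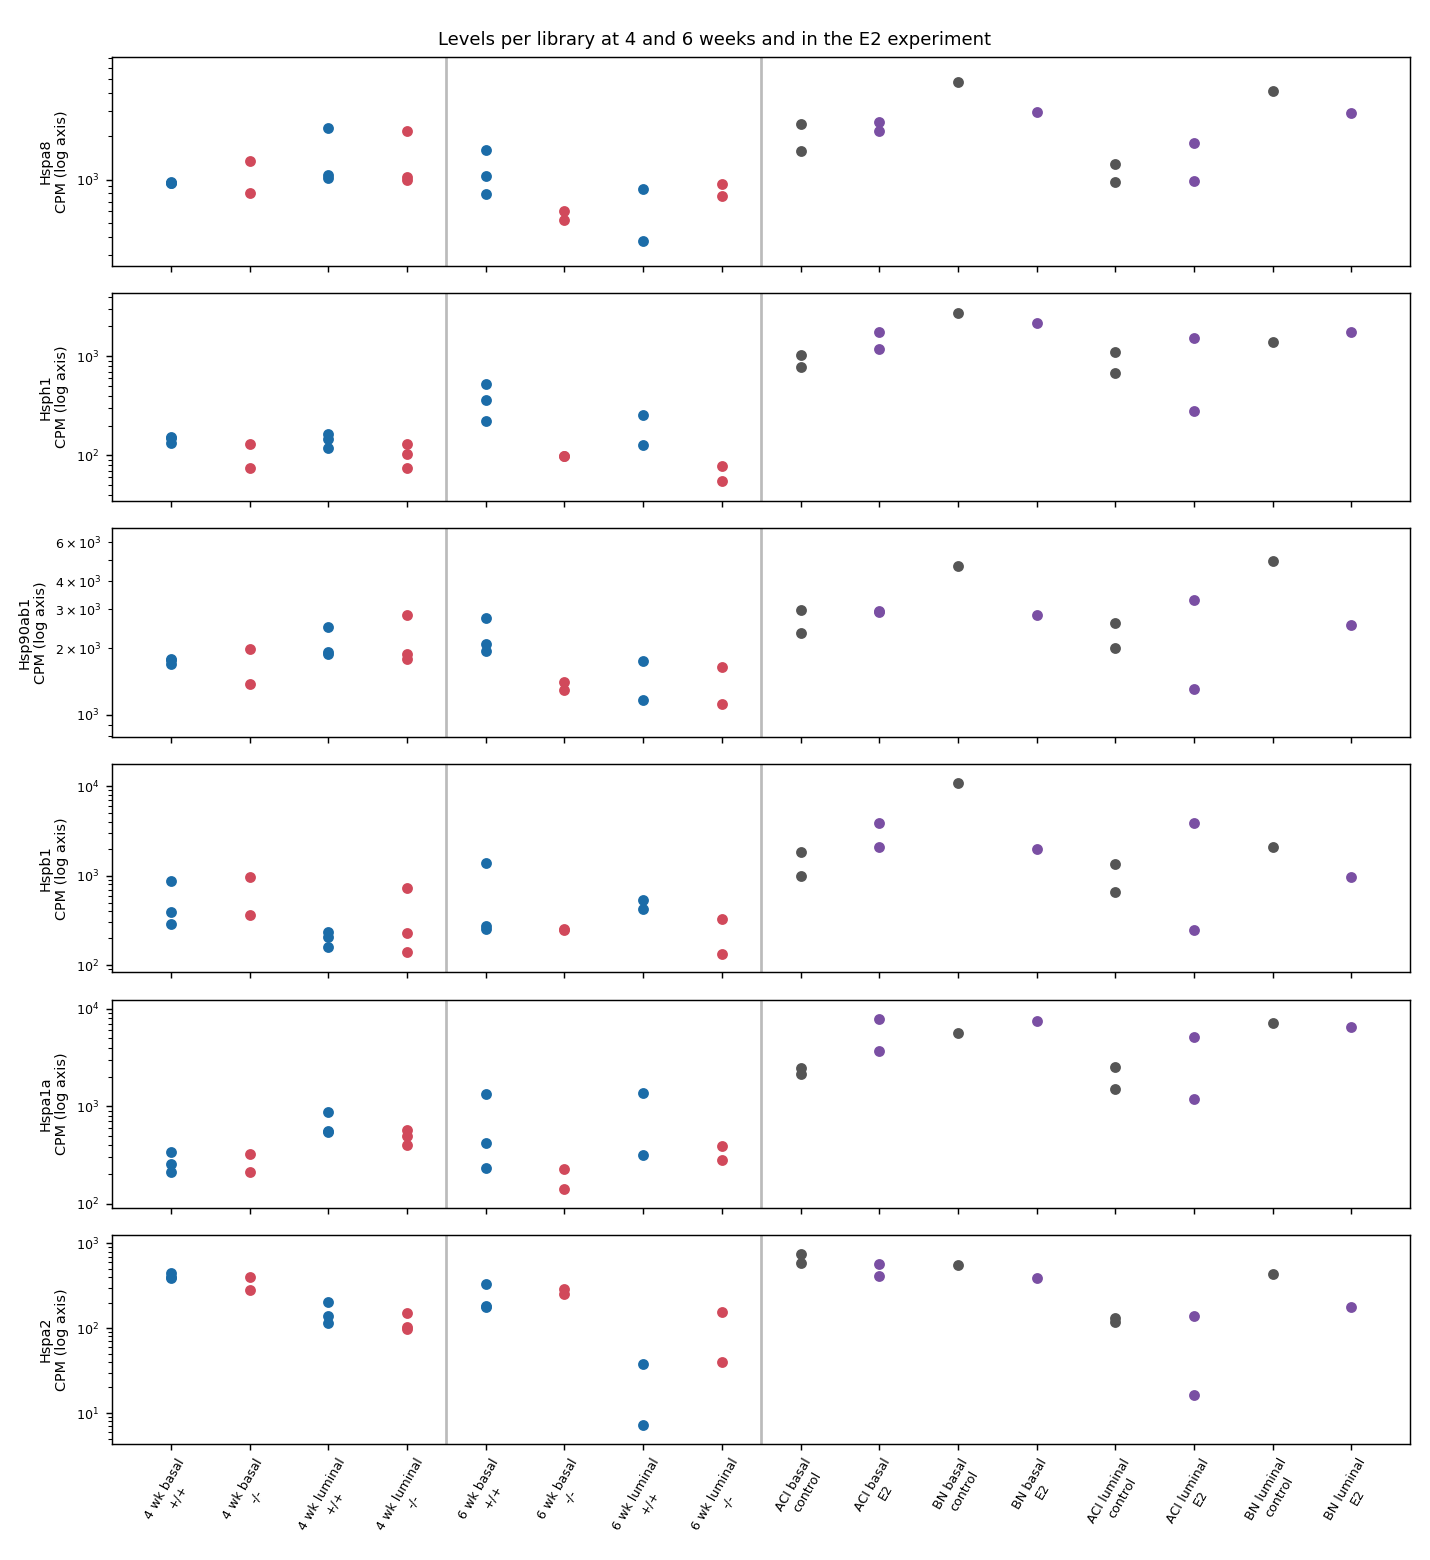
Levels of 6 members in each library of 4 weeks, of 6 weeks and of the E2 experiment, in CPM on log axes. Blue is Cdkn1b+/+, red -/-, grey control and violet E2. The BN groups hold 1 library each. Hsph1 of -/- rats lies below +/+ at 6 weeks in both cell types, and the 2 ACI luminal libraries with E2 lie far apart in Hspb1 and Hspa1a.

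Neither E2 nor strain gave a called member. For E2 against control, with strain as a term, 0 of 68 members of luminal and 0 of 69 of basal cells passed by edgeR, as did 0 percent of all genes, 1 and 0 members (4.07% and 1.6% of all genes) had an unadjusted p under 0.05 and DESeq2 called 0. For ACI against BN, with treatment as a term, 0 of 68 and 0 of 69 passed and 0 percent of all genes, 2 and 1 members (4.58% and 0.788% of all genes) had an unadjusted p under 0.05, and DESeq2 called 1 and 0 (2.66% and 0.0709% of all genes). Hspb1, whose promoter in human cells is known to respond to estrogen, had 1363 and 656 CPM in ACI control, 249.9 and 3856 in ACI with E2, 2119 in BN control and 969 in BN with E2, all luminal, with a log2 fold change for E2 of 0.32 (SE 1.05). The first ACI library with E2, at 249.9 CPM, is the one with fibroblast markers. In basal cells Hspb1 had 984 and 1858, 2102 and 3866, 10954 and 1988 CPM in the same order, with a log2 fold change for E2 of 0.03 (SE 0.96). Hspa1a in basal cells had 2156 and 2484 CPM in ACI control, 3663 and 7773 with E2, 5674 in BN control and 7549.6 with E2, so that each E2 library exceeded the controls of its strain, without passing (log2 fold change 1.01, SE 0.53, edgeR adjusted p = 1). Of these, the first ACI library with E2 is the one low in basal markers and the BN one with E2 is that with fibroblast markers. Their part was not tested.

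Between strains, the luminal members were lower in ACI in 48 of 68 cases with a median log2 difference of -0.49, against 0.03 over all genes, but with library totals in place of TMM the medians were 0.03 and 0.51. Hspa8 had 1294, 968, 982 and 1787 CPM in the 4 ACI luminal libraries (control before E2) and 4145 and 2896 CPM in the 2 of BN (log2 fold change -1.51, SE 0.47, edgeR adjusted p = 0.93). In basal cells it had 1595, 2438, 2508 and 2197 and 4825 and 2944 CPM, with a log2 fold change of -0.82 (SE 0.47). In both cell types the BN libraries lay above those of ACI. Hspa13 had -1.40 (SE 0.39) in luminal cells (edgeR adjusted p = 0.93). The summed immediate early genes in luminal libraries ran from 22171 to 145796 CPM in ACI and from 69937 to 173633 CPM in BN, the lowest being the library with fibroblast markers, and their part was not tested.

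Other chaperone genes were listed beside the members. In LP, 1 of 12 Hsp90 co-chaperones passed, Fkbp5, an immunophilin induced by glucocorticoid and progesterone (1.72 on the log2 scale), and none of 11 Hsp70 partners, 8 subunits of the cytosolic chaperonin TRiC or 11 ER folding genes. Of all genes, 3.4% passed there. Between basal and mature luminal cells, 5 of 11 ER folding genes were lower in basal cells, led by Sdf2l1 (-1.83) and the stress factor Xbp1 (-1.60), beside Pdia6, Manf and Edem1. Of all 12809 genes tested, 2353 were lower and 2608 higher in basal cells. Bag3, the partner of Hspb8, was higher (1.26), and so was the collagen chaperone Serpinh1 (1.28), at 4 weeks too (1.12 and 2.00). Other Hsp70 partners passed as lower in basal than in mature luminal cells, Grpel2 (-1.34), Sil1 (-1.04) and Bag1 (-0.49). Of the Hsp90 co-chaperones, Unc45a passed as higher (0.48), and Fkbp5 (-0.91) and Chordc1 (-0.90) as lower. In +/+ basal cells, 6 of 8 TRiC subunits and 5 of 12 Hsp90 co-chaperones were higher at 6 than at 4 weeks, Cct3 by 1.27, Cct8 by 1.20, Chordc1 by 1.77 and Ptges3 (p23) by 1.40 on the log2 scale, and none was lower. Of all 12572 genes tested there, 606 were higher and 714 lower at 6 weeks.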

How the data were processed

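RNA-seq of sorted mammary epithelial cells was used as deposited, 1 table of counts per gene for each of 48 libraries. Per the labels and the study's methods, the authors made single-end libraries with a SMARTer kit, aligned them with STAR (2.5.1b) to the rn6 build and counted reads with HTSeq over RefSeq genes, and the deposited values are raw counts. Whether counting used strand is not given in the sources used here. Peak files of the series were not used. Rows that name no gene were left out.

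Each age and the E2 experiment were fitted on their own (4 and 6 weeks together for age) with edgeR (4.0.16, R 4.3.3), after filterByExpr by group and with TMM factors, by the quasi-likelihood test, and p-values were adjusted by the Benjamini-Hochberg method over all genes tested. The threshold was an adjusted p of 0.05. The SE is the log2 fold change over the root of F. PNA+ and Cd49b+ libraries were joined as LP. The E2 and strain fits took 1 cell type each, strain and treatment as terms. The members named were 20 core genes with known roles and, in each comparison, up to 5 per direction by size of the log2 fold change among those called with a mean log2 CPM above 2, and any others were named after their values were seen. Members and gene lists were chosen with earlier results of these data known. Promoters are RefSeq sequences of GRCr8. No transcript length was used.

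Same-numbered libraries of a genotype deviated together at 9 weeks (correlations of 0.37 to 0.93 over 12 pairs of populations), as did those of 1 animal at 4 weeks (0.24 to 0.82 over 5 pairs) and in the E2 experiment (0.16 to 0.20 over 4), less so at 6 weeks (-5.9e-04 to 0.13 over 4). Where both groups of a pair hold 2 libraries, the deviations mirror each other, so the 2 pairs repeat 1 value. This holds for all pairs of the E2 experiment and the -/- pairs of 6 weeks. Across genotypes, the 4 pairs of the same number at 9 weeks gave -0.43 to -0.16 and were not taken as pairs. Where nothing says that libraries came from separate animals, p-values measure only the spread between these libraries. No 2 libraries of a group agreed within counting error (28 pairs). Alternatives were RLE factors, library totals, no filter or at least 10 counts in every library, DESeq2 (1.42.0), a block for the number or animal, summed LP libraries, the compared groups alone, both genotypes, and leaving out each library. PNA+ or Cd49b+ libraries alone were added after the data were seen.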

Additional observations from a re-analysis of the deposited data

Results flagged for a closer look

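In 86 groups of 4 LP libraries, each a member and a genotype, 4 held a library whose gap to the nearest other exceeded Dixon's critical value, where chance gives about 1 in 20. The Hsp90ab1 level of the second Cd49b+ library was the lowest of both genotypes, at 3181 CPM in +/+ (nearest 3593) and 1894 CPM in -/- (nearest 2113). In the second -/- Cd49b+ library, the small Hsps Hspb6 and Hspb8 were the highest of their group, at 24.4 CPM (nearest 12.98) and 173 CPM (nearest 101). Both genes were higher in basal than in mature luminal cells, and this library held 3950.1 CPM of basal markers. The part of these markers in the values was not tested.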

How the results depend on the processing

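Over all alternatives, 275 of 332 counts of called members stayed within 1.5 times of those given and 57 did not. Of the medians, 195 of 196 stayed within the spread, and of the values of named members 869 of 996 kept direction and call, 69 lost the call, 15 gained it and 43 changed sign, all in values that passed in neither fit. The count for genotype in LP (5) was 3 without a filter and 3 with a log2 fold change beyond 1, 10 by DESeq2, 0 with summed libraries and 0 for PNA+ or Cd49b+ alone, and 2 to 10 without 1 library. By DESeq2 the counts became 6 for mature luminal and 1 for basal cells, 23 for LP against mature luminal, 4 and 7 for genotype at 6 weeks in basal and luminal cells, 11 and 8 for basal against luminal at 6 weeks and in the E2 experiment, 15 and 5 for age in basal and luminal cells, 1 for strain in luminal cells, and 1, 1, 2 and 6 for the differences of genotype effects. With the number of a library or the animal as a replicate block, 7, 2 and 0 members were called for genotype in LP, mature luminal and basal cells, 42 for basal against mature luminal, 28 for LP against mature luminal, and 26, 3 and 0 for basal against luminal at 4 weeks, at 6 weeks and in the E2 experiment. Summed LP libraries gave 2 against mature luminal, library totals 2 for basal against luminal at 6 weeks, a minimum of 10 counts 4 in the E2 experiment, both genotypes 3 and 1 for age in basal and luminal cells, and the compared groups alone 7 in luminal cells. Without 1 library the range was 4 to 18 for LP against mature luminal, 1 to 13 for basal against luminal at 6 weeks, 0 to 1 in the E2 experiment, 0 to 11 for genotype in luminal cells at 6 weeks, 3 to 9 and 0 to 3 for age in basal and luminal cells, 0 to 2 for LP minus basal and 0 to 8 for the luminal change of the genotype effect with age. The cause was not tested. With 2 libraries in most groups and 1 per BN group, and 7985620 to 16390500 counts per library at 6 weeks, smaller differences could not be detected.

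These sign changes were in log2 genotype effects at 9 weeks, given here with the reported value in brackets. In LP, Hspa5 (-0.077) was between -0.25 and 0.035 without 1 library. Hsp90b1 (0.13) was -0.17 with library totals. Dnaja1 (-0.039) was 0.038 with PNA+ alone and between -0.31 and 0.13 without 1 library. Dnajb9 (0.22) was -0.077 with library totals. Dnajc3 (0.14) was -0.19 with library totals. In mature luminal cells, Hsp90aa1 (-0.37) was between -1.98 and 0.36 without 1 library. Hsp90b1 (0.050) was -0.036 with RLE factors, -0.13 with library totals, -0.011 with a minimum of 10 counts, -0.036 with DESeq2, -0.014 with the compared groups alone and between -0.11 and 0.18 without 1 library. Hspb8 (0.098) was -0.037 with library totals and between -0.30 and 0.53 without 1 library. Dnajc3 (0.013) was -0.080 with RLE factors, -0.17 with library totals, -0.062 with a minimum of 10 counts, -0.080 with DESeq2, -0.055 with the compared groups alone, -0.028 with the block and between -0.38 and 0.33 without 1 library. In basal cells, Hspa1a (0.52) was between -0.29 and 1.03 without 1 library. Hspa1b (0.63) was between -0.18 and 1.15 without 1 library. Hsp90b1 (-0.74) was between -1.26 and 0.094 without 1 library. Hspb8 (0.38) was between -0.093 and 1.10 without 1 library. Hspe1 (-0.21) was between -0.60 and 0.32 without 1 library. Dnaja1 (0.023) was -0.010 with RLE factors, -0.23 with library totals, -0.010 with DESeq2, -0.055 with the compared groups alone and between -0.19 and 0.24 without 1 library. Hsf2 (0.11) was -0.16 with library totals and between -0.29 and 0.67 without 1 library.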
